A study of Homo sapiens with 6 samples.

Results

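TRIM24 binding was examined in windows of human chromosome 19 that hold gene clusters for Krüppel-type zinc-finger proteins. The members were all TRIM24 peaks whose midpoint lay in 4 windows of chromosome 19, set by position alone in hg19: 11.6 to 12.6 Mb (the distal p-arm cluster), 19.5 to 24.5 Mb (the pericentromeric p-arm cluster), 44.3 to 45 Mb (the mid q-arm cluster) and 52.5 to 59 Mb (the telomeric q-arm cluster). They numbered 393 of the 37470 peaks in 3 lists, with 81 of 9744 in LNCaP cells under vehicle, 48 of 7105 in LNCaP cells under dihydrotestosterone (DHT) and 264 of 20621 in LNCaP-abl cells. No annotation of hg19 was used here, so peaks are named by position and no peak is assigned to a gene. Whether a peak lies in an exon, an intron or a promoter was likewise not determined. The windows were not limited to zinc-finger genes, and whether a peak lies in such a gene is unknown. Below, a cluster means the whole window.

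The peaks come from chromatin immunoprecipitation with an antibody against TRIM24 followed by sequencing. LNCaP cells were derived from a metastasis of a prostate cancer and depend on androgen, and the LNCaP-abl subline was obtained from them and grows without androgen. LNCaP cells spent 72 h in hormone-depleted medium and then 4 h with ethanol vehicle or 10 nM DHT, a potent androgen, and LNCaP-abl cells, always kept in hormone-depleted medium, received vehicle for 4 h. Each condition had 1 TRIM24 library, so no test between conditions was made, and the input libraries were not analysed here. The files give peaks without read numbers, so the depth is unknown. The deposited score of a peak is −log10 of a p or q value and rises with depth, as does the number of peaks. All intervals below are exact 95% intervals of the counting error alone, computed as if peaks were independent of their neighbours, which they are not.

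Krüppel-associated box (KRAB) zinc-finger genes arose by repeated tandem duplication, and chromosome 19 carries the main arrays of them. Their proteins bind DNA through arrays of fingers, and through the KRAB domain they recruit TRIM28, a relative of TRIM24, which brings in histone H3 lysine methylation and silences transposable elements. Zinc-finger gene bodies are themselves known to carry this repressive chromatin, while their promoters are usually active. TRIM24 reads chromatin through a paired PHD finger and bromodomain and is best known as a coregulator of nuclear receptors, among them the androgen receptor in prostate cancer. In the RefSeq gene table of GRCh38.p14, 265 of the 562 protein-coding genes with a zinc-finger symbol (ZNF, ZSCAN, ZFP, ZIM or ZIK1) are on chromosome 19. Of these, 231 stand in 23 runs of 3 or more direct neighbours, the longest with 27 genes. Only names and gene order were taken from that table, so these genes were not matched to the 4 windows.

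TRIM24 peaks were sparser in the zinc-finger clusters than in the rest of chromosome 19 in each of the 3 lists. Under vehicle the clusters held 6.14 peaks per Mb (4.87 to 7.63) and the rest of the chromosome 11.5 (10.5 to 12.5), a ratio of 0.535 (0.418 to 0.678). Under DHT the densities were 3.64 (2.68 to 4.82) and 7.69 (6.91 to 8.54) peaks per Mb, a ratio of 0.473 (0.342 to 0.640). In LNCaP-abl they were 20.0 (17.7 to 22.6) and 30.0 (28.4 to 31.6) peaks per Mb, a ratio of 0.666 (0.582 to 0.761). The rest takes in most of the longest stretch without a peak of any list, at the centromere. Without that stretch the rest had 12.3 vehicle, 8.28 DHT and 32.3 LNCaP-abl peaks per Mb. The interval of the ratio lay below 1 in each list. This did not hold for the few LNCaP peaks with scores of 26.1 or more, the median of the LNCaP-abl list. With 8 vehicle peaks in the clusters and 25 in the rest, the ratio was 1.11 (0.434 to 2.54), and with 7 and 27 DHT peaks it was 0.901 (0.331 to 2.12). In LNCaP-abl it was 0.537 (0.426 to 0.669) at the same minimum.

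The 4 windows made up 22.3% of the chromosome up to its last peak at 59.1 Mb. They held 13.3% (10.7 to 16.3) of the 607 vehicle peaks of chromosome 19, 12.0% (8.96 to 15.6) of the 401 DHT peaks and 16.1% (14.3 to 18.0) of the 1641 LNCaP-abl peaks. The lists differed less from each other than each of them did from the share of length. The LNCaP-abl share was 1.21 times (0.937 to 1.57) the vehicle share and 1.34 times (0.985 to 1.87) the DHT share, and the DHT share was 0.897 times (0.614 to 1.30) the vehicle share. All 3 intervals included 1. When every list was reduced to its best 7105 peaks by score, the clusters held 56 of 424 vehicle peaks, 48 of 401 DHT peaks and 49 of 404 LNCaP-abl peaks of the chromosome, and the ratio of LNCaP-abl to vehicle became 0.918. The density ratios to the rest were then 0.529 (0.392 to 0.702), 0.473 (0.342 to 0.640) and 0.480 (0.348 to 0.648).

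**Figure D1:**
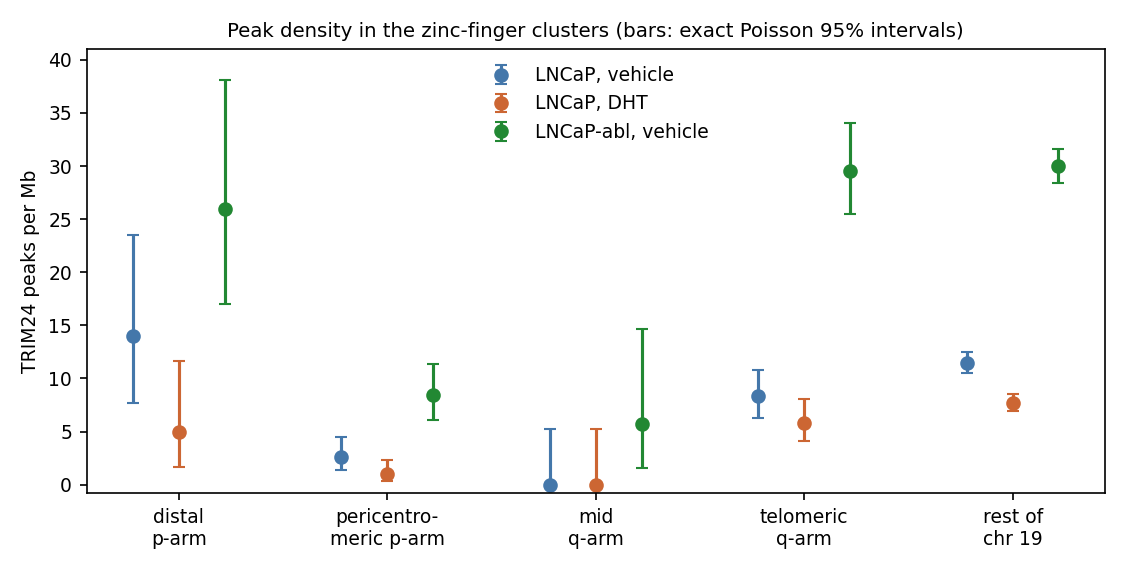
TRIM24 peaks per Mb (y axis) in the 4 zinc-finger clusters and in the rest of chromosome 19 (x axis) for the 3 lists. Points are counts over window length and bars are exact Poisson 95% intervals; the pericentromeric and mid q-arm clusters lie below the rest of the chromosome in each list, and the LNCaP-abl point of the telomeric q-arm cluster lies beside it at 29.5 peaks per Mb.

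The clusters differed widely among themselves. The pericentromeric p-arm cluster, the array that runs up to the centromere, was among the emptiest, with 2.60 peaks per Mb under vehicle, 1.0 under DHT and 8.40 in LNCaP-abl. Its ratios to the rest of the chromosome were 0.227 (0.12 to 0.391), 0.13 (0.0419 to 0.306) and 0.280 (0.201 to 0.380). The mid q-arm cluster had 0 vehicle peaks and 0 DHT peaks in 0.7 Mb, which allows up to 5.27 peaks per Mb in either list. LNCaP-abl had 4 peaks there, or 5.71 per Mb (1.56 to 14.6), a ratio of 0.190 (0.0518 to 0.489). In LNCaP-abl the distal p-arm cluster had 26.0 (17.0 to 38.1) and the telomeric q-arm cluster 29.5 (25.5 to 34.0) peaks per Mb, beside 30.0 in the rest.

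The telomeric q-arm cluster held most of the members, with 54 of 81 under vehicle, 38 of 48 under DHT and 192 of 264 in LNCaP-abl. Its density ratio to the rest of the chromosome was 0.725 (0.537 to 0.960) under vehicle, 0.760 (0.529 to 1.06) under DHT and 0.984 (0.842 to 1.15) in LNCaP-abl. With lists of equal length the 3 ratios were alike, at 0.748 (0.523 to 1.04), 0.760 and 0.736 (0.510 to 1.03), and the LNCaP-abl density of this cluster was 5.69 peaks per Mb. For the distal p-arm cluster, with 14 vehicle, 5 DHT and 26 LNCaP-abl peaks, the ratios were 1.22 (0.663 to 2.07), 0.650 (0.210 to 1.53) and 0.866 (0.564 to 1.28). This cluster lies in a peak-rich part of the p arm. Against the 1 Mb on each side of it, where LNCaP-abl had 54.5 peaks per Mb, its ratio was 0.560 (0.286 to 1.03) under vehicle, 0.333 (0.101 to 0.868) under DHT and 0.477 (0.298 to 0.737) in LNCaP-abl. These flanks were chosen after the values were seen.

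Peaks were unevenly placed within the clusters too. In the pericentromeric cluster, the first 500 kb, up to 20 Mb, had 5 peaks under vehicle, 1 under DHT and 16 in LNCaP-abl, while each of the next 9 bins of 500 kb held at most 6 LNCaP-abl peaks. The longest stretch of this cluster between peaks of any list ran for 597 kb, from 22288294 to 22885628. In the telomeric cluster the bin from 55 to 55.5 Mb held no peak of any list, and the stretch from 54976844 to 55574129 was empty. The next bin, up to 56 Mb, had 11 peaks under vehicle and 9 under DHT, the most of any bin of the clusters in those lists, and 28 in LNCaP-abl. The last bin, from 58.5 to 59 Mb, held 10, 8 and 28. Among 26 full bins in the clusters the median was 2 vehicle, 1 DHT and 8 LNCaP-abl peaks, and among 91 bins in the rest of the chromosome it was 5, 3 and 12.

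**Figure D2:**
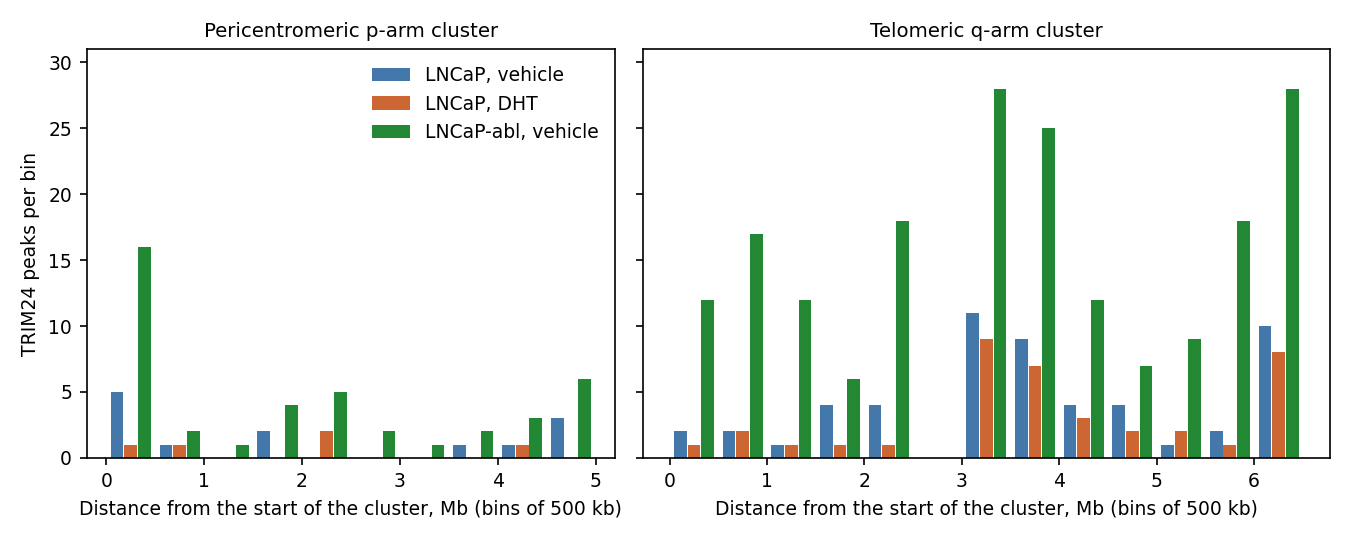
Number of TRIM24 peaks per 500 kb (y axis) by distance from the start of the cluster in Mb (x axis), for the pericentromeric p-arm cluster (left) and the telomeric q-arm cluster (right), with 1 bar per list. In the left panel the first bin stands above the others with 16 LNCaP-abl peaks, and in the right panel an empty bin is followed by one with 28.

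Peaks of the clusters had a close neighbour less often than peaks elsewhere on the chromosome. Sparser peaks have fewer close neighbours, so the shares and distances below are not separate from the densities above. Under vehicle, 20 of 81 cluster peaks (24.7%, 15.8 to 35.5) had another vehicle peak of the same cluster within 10 kb, against 49.6% (45.3 to 54.0) of peaks in the rest of chromosome 19. Under DHT the shares were 18.8% (8.95 to 32.6) and 38.2% (33.1 to 43.5), and in LNCaP-abl 48.9% (42.7 to 55.1) and 65.5% (62.9 to 68.0). The telomeric cluster in LNCaP-abl had 29.5 peaks per Mb and a share of 54.7% (47.4 to 61.9). Its density was near the 30.0 of the rest, which was 32.3 without the longest stretch that held no peak. In the distal p-arm cluster, 0 of 14 vehicle peaks had a neighbour within 10 kb, which allows a share of up to 23.2%. The median distance between successive cluster peaks was 45.4 kb (31.3 to 83.2) under vehicle, against 31.1 kb (23.9 to 36.3) in the rest, and 85.4 kb (43.0 to 233) under DHT, against 57.9 kb (47.3 to 69.8). These intervals overlapped, and those of LNCaP-abl did not, at 20.5 kb (16.7 to 26.5) against 12.1 kb (10.8 to 13.4).

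Cluster peaks of LNCaP-abl scored lower than other LNCaP-abl peaks of the chromosome, while in both LNCaP lists the intervals of the medians overlapped. The median score of LNCaP-abl cluster peaks was 13.6 (12.4 to 16.6), against 20.0 (18.0 to 22.2) in the rest of chromosome 19 and 26.1 over the whole list. Under vehicle the medians were 6.20 (5.29 to 7.38) in the clusters and 6.46 (6.20 to 6.88) in the rest, and under DHT 7.09 (6.0 to 9.75) and 7.11 (6.63 to 7.71). Median widths in LNCaP-abl were 408 bp (364 to 468) in the clusters and 453 bp (431 to 481) in the rest, with overlapping intervals. They were 282 and 276 bp under vehicle and 287 and 286 bp under DHT.

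The low number of peaks was more marked among strong LNCaP-abl peaks than among weak ones. In the lowest score quartile of the LNCaP-abl list, the density of the clusters was 0.786 times (0.614 to 0.997) that of the rest of the chromosome, with 85 peaks in the clusters. The ratio was 0.747 (0.585 to 0.943) in the second quartile, 0.638 (0.482 to 0.834) in the third and 0.388 (0.25 to 0.579) in the highest, with 27 peaks. Under vehicle the 4 ratios ran from 0.485 to 0.634 in no order of score. Under DHT they were 0.444, 0.320, 0.481 and 0.625 (0.342 to 1.07) from the lowest to the highest quartile. Of the highest score decile of each list, the clusters had 11 of 972 vehicle, 11 of 713 DHT and 12 of 2063 LNCaP-abl peaks. At a common minimum score of 26.1 they had 8, 7 and 92 peaks. The peaks of the decile are 13.6% (6.98 to 23.0) of the vehicle members, 22.9% (12.0 to 37.3) of the DHT members and 4.55% (2.37 to 7.81) of the LNCaP-abl members. The shares over the whole lists are 9.98%, 10% and 10%. In the rest of chromosome 19 they were 11.8%, 12.2% and 6.46% (5.22 to 7.89). The density ratios in this decile were 0.617 (0.293 to 1.18) under vehicle, 0.889 (0.414 to 1.75) under DHT and 0.469 (0.233 to 0.860) in LNCaP-abl. The LNCaP-abl ratio was thus not lower in this decile than in the highest quartile.

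**Figure D3:**
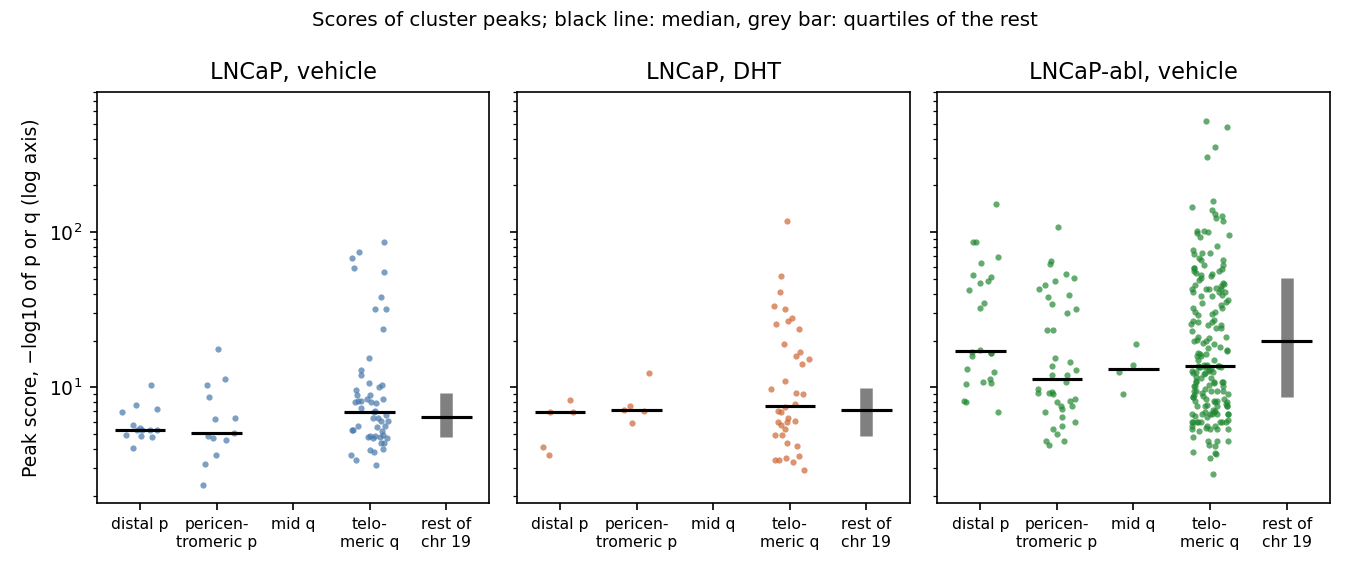
Scores of the cluster peaks (y axis, log scale, −log10 of p or q) by cluster (x axis) for each list, with 1 point per peak and a black line at the median. The grey bar spans the first to the third quartile of the rest of chromosome 19; scores above 100 in LNCaP-abl lie mostly in the telomeric q-arm cluster, and its median of 13.6 is below the 20.0 of the rest.

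The strong members lay almost entirely in the telomeric q-arm cluster. It held 10 of the 11 vehicle peaks, 11 of the 11 DHT peaks and 11 of the 12 LNCaP-abl peaks that fell in the highest score decile of their list. The other vehicle peak lay in the pericentromeric cluster, and the other LNCaP-abl peak in the distal p-arm cluster. In the pericentromeric cluster, 0 of 42 LNCaP-abl peaks reached this decile, which allows up to 8.41%. The telomeric cluster also held most of all members, with 54 of 81, 38 of 48 and 192 of 264. Of its own peaks, 18.5% (9.25 to 31.4), 28.9% (15.4 to 45.9) and 5.73% (2.89 to 10.0) were in this decile. In the rest of chromosome 19 the shares were 11.8% (9.16 to 14.9), 12.2% (8.96 to 16.1) and 6.46% (5.22 to 7.89), with overlapping intervals.

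The sharing of cluster peaks between lists was close to that on the rest of the chromosome. Of the vehicle members, 33 of 81 (40.7%, 29.9 to 52.2) overlapped a DHT peak, against 43.0% (38.7 to 47.3) in the rest of chromosome 19 and 48.6% over the whole list. A LNCaP-abl peak overlapped 64 of them (79.0%, 68.5 to 87.3), against 85.7% (82.5 to 88.6) and 88.4%. Of the DHT members, 33 of 48 (68.8%, 53.7 to 81.3) overlapped a vehicle peak, against 65.2% (59.9 to 70.1) and 66.7%. A LNCaP-abl peak overlapped 45 of them (93.8%, 82.8 to 98.7), against 87.3% (83.3 to 90.5) and 88.8%. In each of these comparisons with the rest of the chromosome the intervals overlapped.

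Of the LNCaP-abl members, 61 of 264 (23.1%, 18.2 to 28.7) overlapped a vehicle peak, against 29.4% (27.0 to 31.9) in the rest of chromosome 19 and 36% over the whole list. A DHT peak overlapped 44 of them (16.7%, 12.4 to 21.7), against 20.8% (18.7 to 23.1) and 27.4%. With the rest of the chromosome weighted to the score quartiles of the members, the shares to compare with were 24.3% and 16.7%, both inside the intervals of the clusters. In the highest score quartile, 20 of 27 cluster peaks and 184 of 242 peaks of the rest overlapped a vehicle peak, or 74.1% (53.7 to 88.9) and 76.0% (70.1 to 81.3). In the lowest quartile the shares were 3.53% (0.734 to 9.97) and 6.65% (4.35 to 9.66). By cluster, LNCaP-abl peaks were found under vehicle for 12 of 26 in the distal p-arm cluster, 9 of 42 in the pericentromeric, 0 of 4 in the mid q-arm and 40 of 192 in the telomeric cluster.

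**Figure D4:**
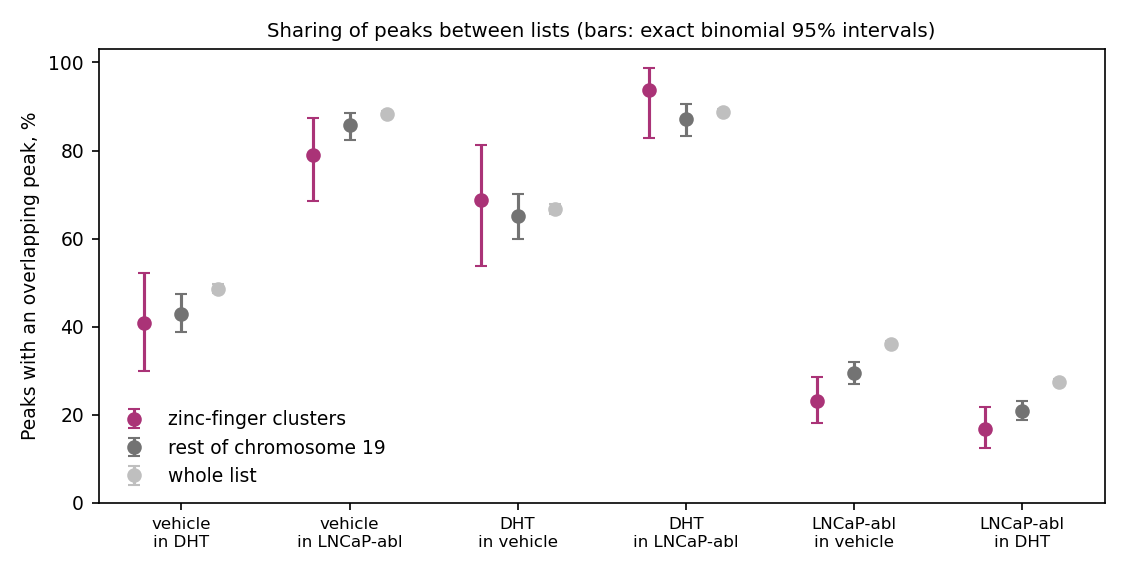
Percentage of peaks of one list that overlapped a peak of another by at least 1 bp (y axis) for the 6 directed pairs of lists (x axis), in the clusters, in the rest of chromosome 19 and over the whole list. Bars are exact binomial 95% intervals; those of the clusters overlap those of the rest of the chromosome in each pair.

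Joining overlapping peaks of any list gave 282 regions in the clusters. LNCaP-abl alone held 190 of them (67.4%, 61.6 to 72.8), against 60.9% (58.4 to 63.4) of the 1475 regions in the rest of the chromosome, with overlapping intervals. This count differed with the length of the lists: it was 62 in the better-scoring 50% of each list and 16 with lists of equal length. All 3 lists held 31 (11.0%, 7.59 to 15.2), against 14.1% (12.4 to 16.0). A further 30 regions (10.6%) were common to vehicle and LNCaP-abl and 13 (4.61%) to DHT and LNCaP-abl, against 12.7% and 4.88% in the rest. The remaining classes were 2 regions of both LNCaP lists (0.709%), 15 of vehicle alone (5.32%) and 1 of DHT alone (0.355%), against 0.814%, 4.27% and 2.24%. In the distal p-arm cluster 8 of 29 regions (27.6%, 12.7 to 47.2) were common to vehicle and LNCaP-abl and missing under DHT, an interval that overlaps the 12.7% (11.1 to 14.6) of the rest of the chromosome, and 0 were common to DHT and LNCaP-abl alone. In the telomeric cluster these 2 classes held 16 and 11 of 203 regions.

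The regions held by all 3 lists comprised 24 in the telomeric cluster, 4 in the distal p-arm cluster, 3 in the pericentromeric cluster and 0 in the mid q-arm cluster. Ordered by their lowest score over the 3 lists, the first 2 form a close pair in the telomeric cluster. The region from 56153827 to 56155487 had scores of 86.9 under vehicle, 52.1 under DHT and 355 in LNCaP-abl. The region from 56151356 to 56152877, less than 1 kb before it, scored 58.4, 41.4 and 521, the highest LNCaP-abl score of any member. Both stood in the highest 2% of each list, with percentiles of 98.3 or more.

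These neighbours belong to the most crowded 50 kb of the clusters for LNCaP-abl, with 15 LNCaP-abl peaks from 56116709 to 56166910. The vehicle list had 4 peaks in those 50 kb. The DHT list had 3 and, at the very start of this stretch, a further peak that lay within the first of the 15 LNCaP-abl peaks. The most crowded 50 kb of the vehicle list, with 6 peaks between 56111400 and 56155376, and of the DHT list, with 5 between 56146253 and 56186841, lay around the same pair.

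Near the chromosome end, 2 further regions were strong in every list. The region from 58891744 to 58892627 scored 31.9 under vehicle, 31.9 under DHT and 476 in LNCaP-abl. The region from 58837930 to 58839000 scored 67.9, 26.7 and 303. Both ranked in the highest 5% of each list, with their lowest percentile at 95.8. The region from 56091809 to 56092607 scored 38.0, 27.9 and 101, and that from 55727965 to 55728864 scored 23.9, 16.0 and 46.5.

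The region from 57149303 to 57149881, whose lowest score is almost equal to that of the second of the pair, had the opposite balance. It scored 118 under DHT, the 8th highest of the 7105 DHT peaks, and 74.0 under vehicle, the 37th of 9744. In LNCaP-abl its score was 41.4, which ranks 7990th of 20621 peaks, at percentile 61.2. The region from 56652207 to 56653265 likewise scored 32.2 under vehicle and 25.4 under DHT, in the highest 5% of both lists, and 25.7 in LNCaP-abl, at percentile 49.7. In all, 4 of the 31 shared regions had a higher score under vehicle than in LNCaP-abl. The other 2 were 52642279 to 52642748, with 12.9 and 8.40, and 55948738 to 55949119, with 10.3 and 6.0. In the remaining 27 regions LNCaP-abl scored higher.

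Across the 31 shared regions the LNCaP-abl score was a median of 7.5 times (5.09 to 11.6) the vehicle score, against 9.06 times (7.82 to 10.3) in the 208 shared regions of the rest of chromosome 19. The ratio to the DHT score was 8.81 (5.53 to 12.6) in the clusters and 11.1 (9.47 to 12.4) in the rest. Scores rise with depth, so percentiles within each list were compared too. The LNCaP-abl percentile was above the vehicle percentile in 19 of the 31 regions, with medians of 73.6 and 77.7. In the rest it was above in 137 of 208, with medians of 83.2 and 73.4. Against DHT it was above in 21 of 31 and 156 of 208. DHT and vehicle scores were closer, with a median ratio of 0.910 (0.669 to 1.15) in the clusters and 0.877 (0.814 to 0.949) in the rest. The order of the regions was also more alike between the LNCaP lists: across the 31 regions Spearman's rho was 0.71 for DHT with vehicle, 0.29 for LNCaP-abl with DHT and 0.21 for LNCaP-abl with vehicle. These correlations are across sites that share their libraries and were not tested.

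**Figure D5:**
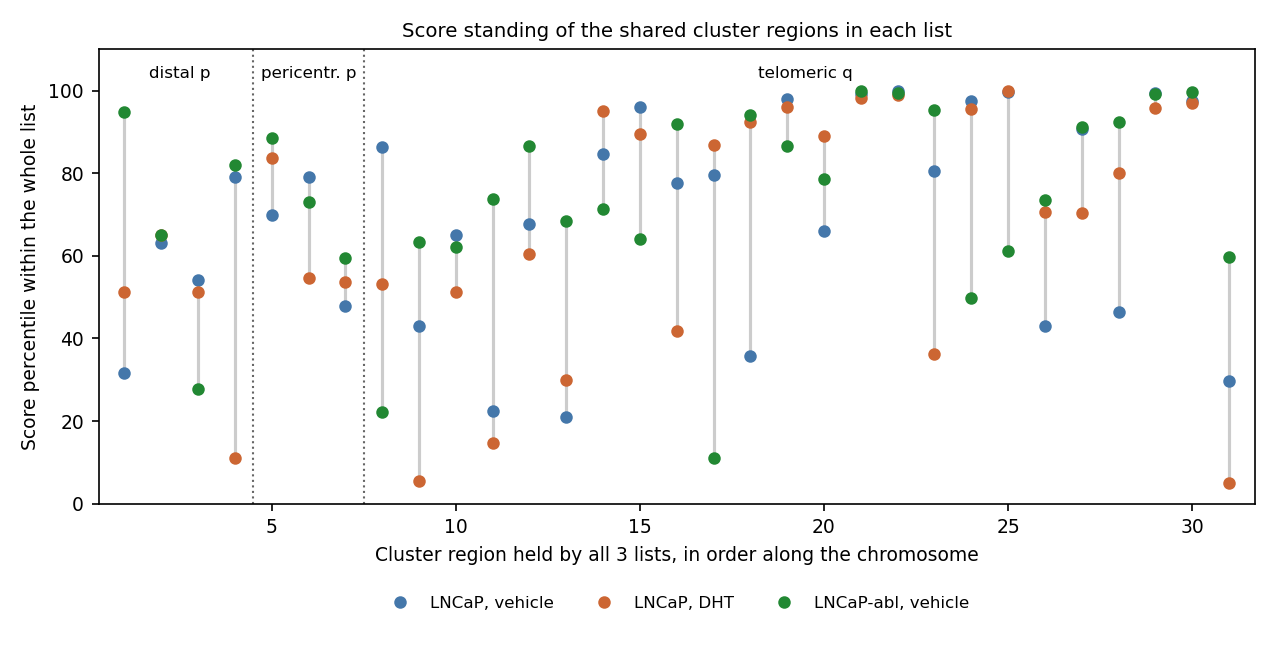
Score percentile within its whole list (y axis) of each of the 31 cluster regions held by all 3 lists (x axis, in order along the chromosome), with 1 point per list and dotted lines between clusters. Points of the 2 LNCaP lists lie near the top at region 25 while the LNCaP-abl point is at 61.2, and at regions 21, 22, 29 and 30 all 3 points are above 95.

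No LNCaP-abl peak overlapped 17 of the 81 vehicle members and 3 of the 48 DHT members, against 75 of 526 and 45 of 353 peaks in the rest of the chromosome. The highest score among them, picked after the values were seen, was at the site from 56181502 to 56182058 under vehicle, with 55.5 at percentile 99.1. Its DHT partner, from 56181418 to 56182070, scored 33.6 at percentile 97.3. The nearest LNCaP-abl peak began 3.98 kb away, from 56186036 to 56187016, with a score of 158 and with its own vehicle and DHT peaks. The only other region of both LNCaP lists without LNCaP-abl, from 58609165 to 58609581, scored 8.39 and 3.6.

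The 15 vehicle peaks found in neither other list had a median score of 4.82, beside 6.46 over the whole list. Regions of vehicle alone in the rest of chromosome 19 also had a median of 4.82. The highest of the 15 was 8.94, at percentile 71.7, from 55884666 to 55884887, with a LNCaP-abl peak 0.626 kb away. The next scored 8.14, from 56622047 to 56622298, and 6.88, from 54401925 to 54402256. The peaks from 54485112 to 54485480 and from 58596086 to 58596285 followed with 6.58 and 5.66. The single DHT peak found in neither other list, from 12146957 to 12147179, scored 3.66 and lay 0.247 kb from a LNCaP-abl peak.

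The 190 LNCaP-abl peaks found in neither LNCaP list had a median score of 10.8 and were 334 bp wide at the median. Regions of LNCaP-abl alone in the rest of chromosome 19 had medians of 12.4 and 371 bp. None of the 190 reached the highest score decile, and 5 were in the highest quartile. Most LNCaP-abl peaks of this decile had a partner in the rest as well. A vehicle peak overlapped 11 of 12 in the clusters and 80 of 89 in the rest, and a DHT peak 11 and 75. The highest of the 190, from 53606401 to 53607112, scored 101 and lay 151 kb from the nearest vehicle peak. The next were 54692930 to 54693529 with 98.3, 56159277 to 56160022 with 93.7, 53193575 to 53194283 with 81.2 and 56915169 to 56915920 with 72.7. Of these 5 peaks, that at 56159277 lay 3.90 kb from a vehicle peak and the others 12.4 kb or more. A LNCaP peak lay less than 1 kb away from 12 of the 190. Like the counts of the 190 by decile and quartile, this count was not made for the rest of the chromosome.

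Among the 13 regions common to DHT and LNCaP-abl, the median DHT score was 5.94 and the median LNCaP-abl score 30.7. The strongest in LNCaP-abl, from 56116709 to 56117326, scored 139 there and 5.94 under DHT. The strongest under DHT, from 56595012 to 56595287, scored 16.8 there and 8.64 in LNCaP-abl. Among the 30 regions common to vehicle and LNCaP-abl, the medians were 5.29 under vehicle and 42.5 in LNCaP-abl. The strongest of these in LNCaP-abl, from 54973881 to 54975075 beside the empty stretch of the telomeric cluster, scored 118 there and 5.29 under vehicle. These 3 regions were picked after their values were seen.

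The distal p-arm cluster had modest peaks in LNCaP and a wide range in LNCaP-abl. Its highest vehicle score was 10.3, from 12511605 to 12512083, where DHT scored 4.09 and LNCaP-abl 86.3. The site from 11925082 to 11925400 under vehicle scored 7.71, 8.27 under DHT and 48.2 in LNCaP-abl. The third vehicle peak, from 11750543 to 11751064, scored 7.29, had no DHT peak within 127 kb and matched a score of 16.6 in LNCaP-abl. The strongest LNCaP-abl peak was 11877723 to 11878443 with 153, where vehicle scored 5.29 and DHT 6.91, so that a region in the highest decile of LNCaP-abl was at percentile 31.6 under vehicle. Next in LNCaP-abl was 12511560 to 12512131, which overlaps the first vehicle peak, and then 11615977 to 11616812 with 86.0, where vehicle scored 5.43 and DHT had no peak. The third DHT peak of this cluster, from 12175794 to 12175993, scored 6.91, against 6.95 under vehicle and 10.5 in LNCaP-abl.

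In the pericentromeric cluster the strongest LNCaP-abl and DHT peaks coincided at its outer end. The LNCaP-abl peak from 19729148 to 19729790 scored 109, against 12.3 for its DHT partner and 8.62 for its vehicle partner. The region from 20149750 to 20150384 scored 10.3 under vehicle, 7.11 under DHT and 64.8 in LNCaP-abl. The third LNCaP-abl peak, from 19738583 to 19739725, scored 62.1, had a vehicle peak of 6.20 and no DHT peak. The second DHT peak, from 21688430 to 21688811, scored 7.58, with 15.4 in LNCaP-abl and no vehicle peak within 447 kb.

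The highest vehicle scores of this cluster lay at its other end, next to the centromere. The peaks from 24185292 to 24185664 and from 24184792 to 24185165 scored 17.5 and 11.4 and were matched by LNCaP-abl peaks of 48.4 and 42.8. No DHT peak lay within 238 kb of either. Beyond this group the chromosome had no peak of any list for 3.51 Mb, from 24216840 to 27731837, which takes in the end of the cluster and the adjoining centromere.

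The mid q-arm cluster had LNCaP-abl peaks alone, with a median score of 13.2 beside 11.4 in the pericentromeric cluster. Its 4 peaks lay from 44808882 to 44809139, 44331571 to 44331868, 44488116 to 44488390 and 44645879 to 44646085, with scores of 19.1, 13.9, 12.4 and 9.03. They were 207 to 298 bp wide and stood at or below percentile 42.7 of the list. The nearest DHT peak to the first of them was 208 kb away and the nearest vehicle peak 338 kb away.

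In numbers of peaks, LNCaP-abl had 3.26 times (2.53 to 4.23) as many as vehicle in the clusters, 2.62 times (2.37 to 2.90) as many in the rest of chromosome 19 and 2.12 times as many over the whole lists. Against DHT the ratios were 5.50 (4.03 to 7.65) in the clusters, 3.90 (3.47 to 4.40) in the rest and 2.90 overall. DHT had 0.593 times (0.406 to 0.857) as many peaks as vehicle in the clusters and 0.671 times (0.585 to 0.769) as many in the rest. In each case the intervals for the clusters and the rest of the chromosome overlapped. Depth differences between the libraries, which the lists do not give, cannot be told apart from the conditions in these ratios.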

How the data were processed

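TRIM24 ChIP-seq peak lists of 3 libraries were used. The submitters' processing notes name Bowtie 0.12.7, FastQC 0.10.0 and MACS2 2.0, and the build hg19. Not given in the sources used here were the read filters, the cutoff and whether inputs served as control. The authors deposited each peak with a −log10 score, from a p-value or a q-value (the lists do not say which). Its lowest value was between 2.02 and 2.05 in the 3 lists. Each list belongs to 1 library, and depth is unknown.

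Peaks were assigned by midpoint and compared by overlap of at least 1 bp (Python 3.11.15, numpy 2.4.6, pandas 2.3.3, scipy 1.17.1), which gave the same peaks as bedtools 2.31.1 and was tested on simulated lists. Shares have Clopper-Pearson intervals, densities Poisson intervals, and ratios the binomial interval of the 2 counts with both totals taken as fixed. Medians have order-statistic intervals. Percentiles and quartiles refer to the whole list. Chromosome length was taken to its last peak. Starts were converted to count from 1. Figures used matplotlib 3.10.9.

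Named peaks are the 3 highest of each list and cluster, the 5 highest of each list without a partner, and the 8 shared regions with the highest lowest score; others, and the bins and stretches singled out, were picked after their values were seen. The members and this rule were chosen with earlier results of these data known. Gene lists and motifs had been planned and were left out, since they need hg19 annotation or sequence.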

Additional observations from a re-analysis of the deposited data

How the results depend on the processing

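Of 234 values under alternatives, 176 stayed within the interval of the main value or within 1.5 times its count, and 57 moved further. The remaining 1 was a ratio that changed sides of 1 although its main interval excluded 1. Ratios whose main interval included 1 were not counted as changing sides, and some of them crossed it. No paired analysis was possible because a single library stood for each condition, which also leaves none to drop. With lists of equal length, 55.4% of vehicle members had a DHT partner and 50% a LNCaP-abl partner, 50% of DHT members had a LNCaP-abl partner, and LNCaP-abl members had a vehicle partner in 55.1% and a DHT partner in 49.0%. All 3 lists then shared 18 regions and LNCaP-abl alone held 16, its share of chromosome 19 peaks in the clusters was 12.1%, its ratio to the vehicle share 0.918, its ratio of median scores to the rest 0.895 and its median spacing 85.3 kb. Its densities were 7, 1, 0 and 5.69 peaks per Mb in the 4 clusters and 7.74 in the rest, and the vehicle density of the pericentromeric cluster was 1.40, as follows from fewer peaks. In the better-scoring 50% of each list, 54.1% of vehicle members had a DHT partner, 67.6% of vehicle and 72.4% of DHT members had a LNCaP-abl partner, and 22.8% of LNCaP-abl members had a DHT partner. The regions numbered 15 in all 3 lists and 62 in LNCaP-abl alone, the LNCaP-abl share in the clusters was 13.4%, its score ratio 0.874 and its ratio to the DHT share 0.978, on the other side of 1 from the main value. At scores of 26.1 or more the clusters held 24.2% of 33 vehicle, 20.6% of 34 DHT and 13.4% of 688 LNCaP-abl peaks, so the order of the lists turned over. The density ratio to the rest was then 1.11 under vehicle, which reversed, 0.901 under DHT and 0.537 in LNCaP-abl, on 8, 7 and 92 cluster peaks. In LNCaP-abl that ratio was 0.537 in the better-scoring 50% and 0.480 with lists of equal length, when it was 0.129 for the pericentromeric, 0 for the mid q-arm and 0.736 for the telomeric cluster. With a reciprocal overlap of 50%, a LNCaP-abl partner remained for 34.6% of vehicle and 45.8% of DHT members, and 10.6% and 8.33% of LNCaP-abl members had a vehicle or DHT partner. Without the telomeric cluster the clusters held 4.88% of vehicle, 2.75% of DHT and 4.97% of LNCaP-abl peaks, the DHT to vehicle ratio was 0.564, 25.9% of vehicle peaks were found under DHT and 29.2% of LNCaP-abl peaks under vehicle. Without the pericentromeric cluster the LNCaP-abl share was 13.9%. Against all other chromosomes, LNCaP-abl median score and width ratios were 0.506 and 0.759. Chosen after seeing the data were these density ratios, the flanks of 1 Mb, the score quartiles and the weighting to score quartiles. The flanks gave 0.560 (vehicle) and 0.477 (LNCaP-abl) for the distal p-arm and 1.15 (0.769 to 1.77) for the telomeric cluster in LNCaP-abl. The telomeric flanks were cut at the last peak, at 59.1 Mb, so they lie almost wholly before the cluster. They held 28 LNCaP-abl peaks. The score quartiles gave 0.320 for DHT in the second and 0.786 and 0.388 for LNCaP-abl in the lowest and highest. The weighting gave 24.3% and 16.7%. For the other changes the cause was not tested. The unknown depth and the unknown read filters limit any reading of absent peaks. How well reads could be placed in these arrays of duplicated genes was not tested.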
